A study of Mus musculus with 12 samples.

Results

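Heat shock proteins are the molecular chaperones that bind unfolded protein chains and help them fold, and co-chaperones are the partners that load, pace or release them. This account covers 10 such genes, taken by name from the deposited count table of 24499 gene symbols: the cytosolic Hsp70 genes Hspa1a, Hspa1b and Hspa8, the Hsp90 genes Hsp90aa1 and Hsp90ab1, the Hsp70 co-chaperones Dnajb1, Dnaja1 and Hsph1, and the mitochondrial chaperonin genes Hspd1 and Hspe1. The table held 1 row for each of them, and all 10 passed the filter on low counts that left 10714 genes to be tested. The libraries came from lymph nodes draining E0771-cOC tumours, taken on day 9 after tumour injection, minced, digested with collagenases and DNase, and enriched for CD11c+ cells with magnetic beads. CD11c is an integrin carried by dendritic cells and some macrophages. The APOE-KO group was 6 libraries from APOE-KO mice, which lack apolipoprotein E, and the wildtype group was 6 libraries from C57BL6 mice. Both groups carried the same tumour, and every library came from day 9, so no tumour-free or undigested node stands beside them. How the knockout allele was made, the sex and age of the mice, and whether each library came from a separate animal were not stated in the sources used here. The p-values therefore reflect variation among these libraries, which may be technical.

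The cytosolic chaperones work as a relay. J-domain proteins such as Dnajb1 and Dnaja1 deliver clients to Hsp70 and trigger its ATP hydrolysis, nucleotide exchange factors such as Hsph1 reopen it, and Hsp90 takes over partly folded clients, many of them kinases and receptors. Part of the system is always present (Hspa8, Hsp90ab1, Dnaja1), while another part is strongly induced when heat shock factor 1 binds the heat shock elements of its promoters (Hspa1a, Hspa1b, Dnajb1, Hsph1, Hsp90aa1). Hspd1 (Hsp60) forms the folding chamber of the mitochondrial matrix and Hspe1 (Hsp10) its lid. In dendritic cells, cytosolic Hsp70 and Hsp90 are also known for handling peptides on their way to antigen presentation.

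Library totals were between 3175135 and 4497466 counts in the APOE-KO group and between 2381477 and 4898360 in the wildtype group, so that 3 counts stood for 0.612 to 1.26 CPM, counts scaled to a common library size. Apoe averaged 5.81 ± 2.95 CPM in APOE-KO libraries and 481 ± 45.7 CPM in wildtype libraries (SD, n = 6 each; edgeR adjusted p = 5.25e-16), which matches the labels. Itgax, the gene for CD11c, averaged 298 ± 36.9 CPM in APOE-KO and 278 ± 54.0 CPM in wildtype libraries (edgeR adjusted p = 0.841). All 16 dendritic cell markers on the list were detected well enough to be tested. Of these, 2 were higher in APOE-KO, beside 1.08% of all genes tested, or 1 in 9 of the 12 fits that left out a library. In sign, 6 were positive and 10 negative, with a median log2 fold change of -0.028. At an unadjusted edgeR p under 0.05 there were 6, beside 12.1% of all genes tested. Summed B cell markers reached 589 to 756 CPM in APOE-KO and 701 to 959 CPM in wildtype libraries. Of the 8 B cell markers tested, 1 was lower in APOE-KO, beside 0.411% of all genes tested. It was 0 in 8 of the 12 fits that left out a library. Summed T cell markers reached 557 to 722.5 CPM in APOE-KO and 599 to 679 CPM in wildtype libraries, so genes of other cell types were measured in both groups. NK cell markers had 0 of 6 past the threshold and 2 at an unadjusted edgeR p under 0.05, all 6 negative with a median log2 fold change of -0.95. Plasmacytoid dendritic cell markers summed to 1143 to 1503 CPM in APOE-KO and 1445 to 3059 CPM in wildtype libraries. Of the 8 tested, 3 were lower in APOE-KO, beside 0.411% of all genes tested. All 8 were negative, with a median log2 fold change of -0.59. By unadjusted edgeR p under 0.05 there were 7, beside 12.1% of all genes tested. Macrophage markers had 2 of 12 tested higher and 2 lower, beside 1.08% and 0.411% of all genes tested. Their log2 fold changes ran from -1.54 to 2.34, with 8 positive, 4 negative and a median of 0.19. Epithelial markers had 1 of 6 tested lower, beside the same 0.411%. Their sums were 8.90 to 85.7 CPM in APOE-KO and 64.3 to 121 CPM in wildtype libraries. All 6 epithelial markers were negative, with a median log2 fold change of -1.68 and 5 at an unadjusted edgeR p under 0.05, and the count past the threshold was 3 with limma-voom and 5 without APOE-KO library 4. The ribosomal precursor Rn45s took 15.7 ± 4.69% of counts in APOE-KO and 14.7 ± 10.5% in wildtype libraries, with the extremes, 2.71% in library 3 and 32.2% in library 1, both in the wildtype group. In bulk RNA of this kind, fewer cells of a type and less RNA per cell cannot be told apart. The part of cell make-up in the chaperone levels was not tested. That of Rn45s was not tested beyond the relations given further on.

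The heat shock element, an array of GAA units in alternating orientation, is the site through which heat shock factor acts, so promoters that carry its letters are shown here. RefSeq windows (GRCm38.p6, 250 bases before to 50 bases after an annotated start, 300 in all) were available for 7 of the 10 genes. The letters GAANNTTC or TTCNNGAA, 2 units in either order, were found in 15.1% of 32851 mouse promoter windows and in at least 1 window of 17.0% of 27025 genes. Of the 7 heat shock genes, 6 held them in at least 1 window, the exception being Dnajb1, and 5 in the window nearest the gene start. The 6 are not separate sites, since Hspe1 and Hspd1 share the same bases and the Hspa1a and Hspa1b windows are near copies. Each of these 8-letter forms reads the same on both strands. The 3-unit forms GAANNTTCNNGAA and TTCNNGAANNTTC, each the reverse complement of the other and each holding 2 overlapping 2-unit matches, occurred in 0.603% of windows, and among these genes in Hsph1, Hspe1 and Hspd1. The 4-unit forms occurred in 0.0244% of windows, belonging to 8 genes in the genome, of which Hspe1 and Hspd1 are a head-to-head pair over the same site. In the windows below, written 5′ to 3′ on the gene's strand, capitals mark the bases covered by a match.
Hspa1a: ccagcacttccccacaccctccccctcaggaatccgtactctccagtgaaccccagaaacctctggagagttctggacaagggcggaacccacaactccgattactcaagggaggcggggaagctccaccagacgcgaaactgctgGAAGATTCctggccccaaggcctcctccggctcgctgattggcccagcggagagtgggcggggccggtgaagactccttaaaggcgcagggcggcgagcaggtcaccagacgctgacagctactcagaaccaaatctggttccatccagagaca
Hspa1b: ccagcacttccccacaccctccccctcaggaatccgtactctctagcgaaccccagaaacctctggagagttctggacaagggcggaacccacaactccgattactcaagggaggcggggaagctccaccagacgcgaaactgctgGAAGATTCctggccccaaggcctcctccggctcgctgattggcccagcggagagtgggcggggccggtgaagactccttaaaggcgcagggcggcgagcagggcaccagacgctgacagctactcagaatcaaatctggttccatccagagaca
Hsph1: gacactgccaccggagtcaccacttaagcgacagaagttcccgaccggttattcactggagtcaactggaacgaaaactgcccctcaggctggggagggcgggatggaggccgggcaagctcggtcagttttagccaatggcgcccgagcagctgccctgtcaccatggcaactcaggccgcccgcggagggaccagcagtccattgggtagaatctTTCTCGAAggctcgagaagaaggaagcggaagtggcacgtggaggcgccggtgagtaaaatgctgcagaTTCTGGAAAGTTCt
Dnaja1: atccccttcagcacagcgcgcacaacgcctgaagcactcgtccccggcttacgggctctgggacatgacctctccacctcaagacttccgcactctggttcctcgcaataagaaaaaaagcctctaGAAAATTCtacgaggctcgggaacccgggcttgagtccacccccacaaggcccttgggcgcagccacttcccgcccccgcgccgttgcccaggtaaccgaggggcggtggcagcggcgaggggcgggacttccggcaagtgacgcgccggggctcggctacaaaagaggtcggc
Hspe1: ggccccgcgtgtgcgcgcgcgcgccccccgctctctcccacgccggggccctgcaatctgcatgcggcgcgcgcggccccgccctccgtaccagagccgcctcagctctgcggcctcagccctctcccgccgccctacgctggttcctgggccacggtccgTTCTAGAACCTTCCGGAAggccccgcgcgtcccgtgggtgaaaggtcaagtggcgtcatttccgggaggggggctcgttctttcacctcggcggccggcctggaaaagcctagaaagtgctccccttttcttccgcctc

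The Hspa1a window lies at chr17:34972107-34972406 and the Hspa1b window at chr17:34959189-34959488, both on the minus strand. They are the same in 296 of 300 bases, or 98.7%, and differ by C44T, T47C, T249G and C276T, with the Hspa1a base first and positions counted from 1 at the 5′ end of the window. In each, the 1 match covers bases -104 to -97 from the start. The Hsph1 window, chr5:149636287-149636586 on the minus strand, has a match at -33 to -26 and a 3-unit match at 36 to 48, past the start. In Dnaja1, classed here as constitutive, the window at chr4:40722218-40722517 on the plus strand has 1 match at -124 to -117. The Hspe1 window, chr1:55087898-55088197 on the plus strand, holds the 4-unit run at -89 to -72, which is chr1:55088059-55088076. The same bases lie at -144 to -127 in the window of the second RefSeq start of Hspd1, on the minus strand, and the Hspd1 window nearest its gene start has no match. These are letter matches in short windows and carry no measurement of binding.

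**Figure D1:**
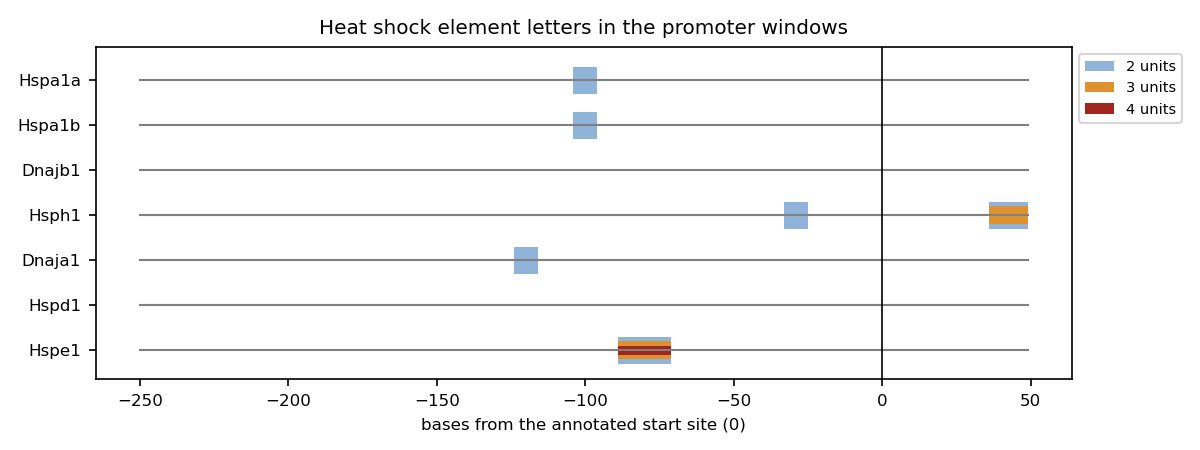
Positions of heat shock element letters in the promoter window nearest each gene's start, for the 7 genes with a RefSeq entry. The horizontal axis is the distance in bases from the annotated start (0), the grey line is the window searched, and blocks mark matches of 2, 3 or 4 units; Hspa1a and Hspa1b share a match at the same distance, Hspe1 has the 4-unit run at -89 to -72, and the Dnajb1 and Hspd1 windows shown are empty.

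The design asks whether loss of Apoe goes with a different chaperone level in CD11c-enriched node cells. None of the 10 genes reached the adjusted threshold of 0.05 by edgeR's quasi-likelihood method, where 1.49% of all 10714 genes tested did: 116 were higher in APOE-KO (1.08%) and 44 lower (0.411%), 160 in all. None had an unadjusted p under 0.05 either, against 12.1% of all genes tested, and DESeq2 and limma-voom gave 0 on both counts, with 2.25% and 1.56% of all their genes past the adjusted threshold. All 10 had overlapping groups, where 1.77% of genes tested did not overlap. The fitted log2 fold changes, APOE-KO over wildtype, lay between -0.34 for Dnajb1 and 0.33 for Hspa1b, with 7 negative and 3 positive. Their median was -0.19, beside -0.018 over all genes tested, of which 52.8% were negative.

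What the data bound is the size of any difference. The 95% interval of the fold change stayed within 1.5-fold either way for Hspa8, Hsp90ab1 and Hspe1, as it did for 33.3% of all genes tested. It stayed within 2-fold for 9 of the 10, all except Hspa1b. The share of all genes tested was not counted for this wider bound, so the 9 cannot be set against it. Leaving out any 1 of the 12 libraries put none of the 10 past the adjusted threshold. By unadjusted p under 0.05 there were 2 without wildtype library 1 and 1 each without APOE-KO library 6, wildtype library 2 or wildtype library 3.

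**Figure D2:**
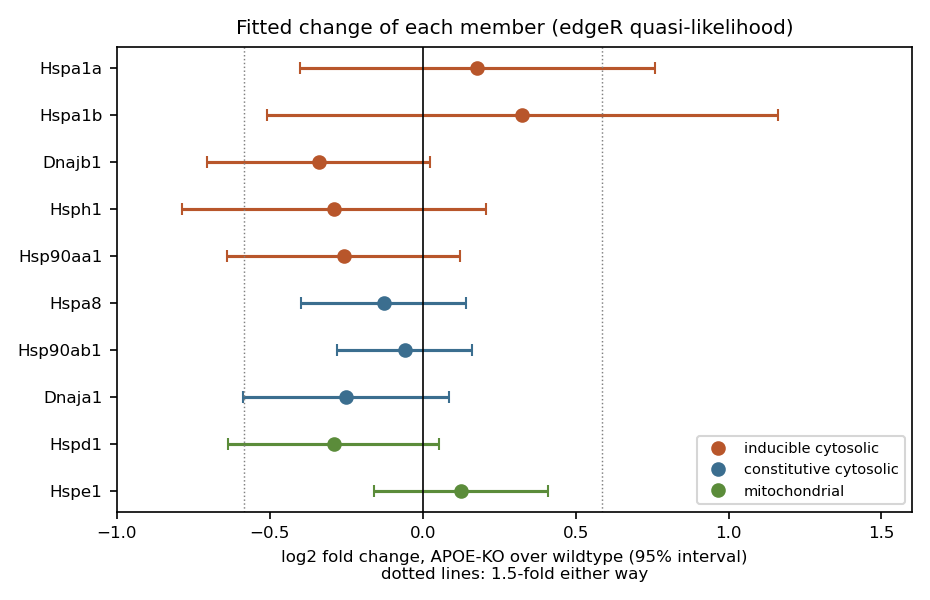
Fitted log2 fold change of each gene, APOE-KO over wildtype (horizontal axis), with its 95% interval from edgeR, coloured by role. All 10 intervals cross 0, and the dotted lines mark 1.5-fold either way.

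Among the inducible genes, the Hsp70 pair had positive estimates and the other 3 genes negative ones, none past the threshold. Hspa1a (chr17:34969190-34972156, minus strand) encodes stress-inducible Hsp70. It overlaps Gm20481 on the other strand, but not in its last 500 bases. Its level ran from 14.9 to 49.6 CPM in APOE-KO libraries, with a median of 27.1, against 9.74 to 40.3 CPM in wildtype libraries, with a median of 27.7. APOE-KO library 6 lay above every wildtype library and wildtype library 5 below every other. The log2 fold change was 0.18 ± 0.28 (SE; 95% interval -0.40 to 0.76; edgeR adjusted p = 0.872), and without APOE-KO library 6 it was -0.017.

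Hspa1b (chr17:34956436-34959238, minus strand) encodes a nearly identical Hsp70 protein. It had the widest spread of the 10, with 1.98 to 44.5 CPM (median 22.3) in APOE-KO and 11.4 to 27.5 CPM (median 17.4) in wildtype libraries. The APOE-KO libraries lay on both sides of the wildtype range: 2 were above all wildtype libraries and 2 below. The highest library was 22.5-fold over the lowest, which was APOE-KO library 2 with 6 counts. The log2 fold change was 0.33 ± 0.41 (SE; 95% interval -0.51 to 1.16; edgeR adjusted p = 0.824). For Hspa1b it was 0.037 without APOE-KO library 6, 0.13 without APOE-KO library 1 and 0.56 without APOE-KO library 2, and limma-voom gave 0.090.

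Dnajb1 (chr8:83608193-83612653, plus strand), the inducible J-domain partner of Hsp70, had the lowest unadjusted p of the 10. APOE-KO libraries had 44.3 to 81.6 CPM (median 62.7) and wildtype libraries 63.7 to 122 CPM (median 70.7). Below every wildtype library lay 4 of the 6 APOE-KO libraries, and wildtype library 3 lay far above the rest. It had a log2 fold change of -0.34 ± 0.18 (SE; 95% interval -0.70 to 0.024), an unadjusted edgeR p of 0.0658 and an adjusted p of 0.451. Without wildtype library 3 it was -0.16.

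Hsph1 (chr5:149614287-149636376, minus strand), the Hsp110 that exchanges nucleotide on Hsp70, had 18.7 to 56.8 CPM (median 35.2) in APOE-KO and 27.6 to 55.6 CPM (median 45.3) in wildtype libraries. Here too the APOE-KO range was the wider and enclosed the wildtype one, with APOE-KO libraries 2 and 5 lowest and library 6 highest. Its log2 fold change was -0.29 ± 0.24 (SE; edgeR adjusted p = 0.700). It was -0.15 without APOE-KO library 5, -0.18 without APOE-KO library 2 and -0.47 without APOE-KO library 6.

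Hsp90aa1 (chr12:110690605-110702728, minus strand) encodes the inducible Hsp90 alpha. It had 178 to 337 CPM (median 299) in APOE-KO and 173 to 467 CPM (median 328) in wildtype libraries. Both ends of the range belonged to the wildtype group, with library 3 lowest and library 1 highest, so the APOE-KO libraries all lay inside it. The log2 fold change was -0.26 ± 0.18 (SE; edgeR adjusted p = 0.630).

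**Figure D3:**
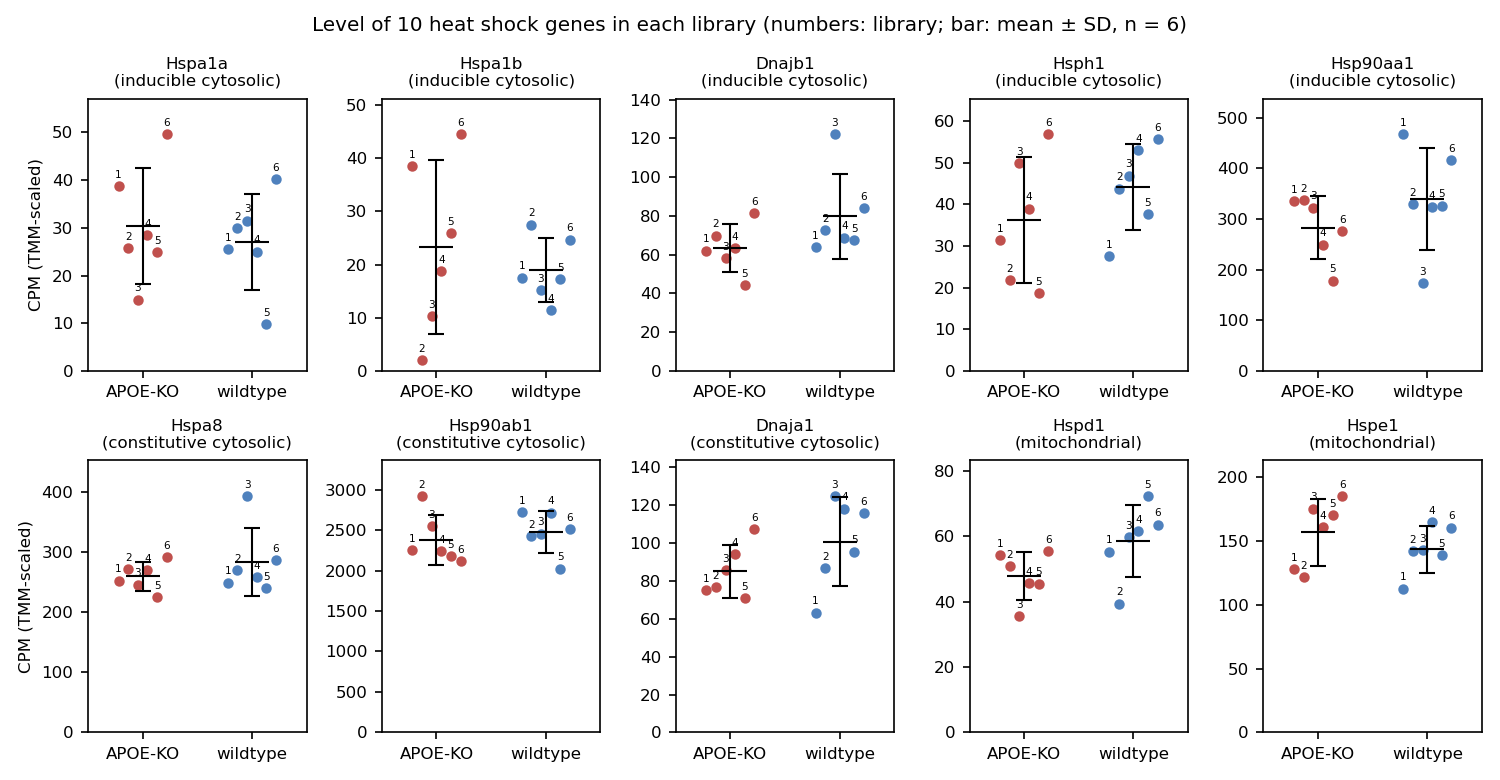
Level of each gene in each of the 12 libraries, in CPM scaled by TMM factors (vertical axis, from 0), with APOE-KO on the left and wildtype on the right of each panel; points carry their library number and bars are mean ± SD (n = 6). The groups overlap in all 10 panels, APOE-KO library 2 is close to 0 for Hspa1b, and wildtype library 3 stands above the rest for Hspa8 and Dnajb1.

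Hspa1a and Hspa1b lie 9951 bases apart, and their annotated transcripts (2967 and 2803 bases) are alike enough that the split of reads between them needs care. Over the whole length they were 84.0% identical and shared an exact run of 638 bases. In the last 500 bases, where reads of a 3′ library fall, identity was 42.4%, close to the 43.4% between Hspa1a and Hspa8. The last exact match of 30 bases between them ended 786 bases before the 3′ end of Hspa1a and 619 before that of Hspa1b. The counting of reads with several matches is not given in the sources at hand.

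Hspa1b took between 7.14% and 51.0% of the reads of the pair in APOE-KO libraries, with a median of 44.1%, against 31.25% to 63.9% in wildtype libraries, with a median of 39.4%. In APOE-KO library 2 the share rested on 6 of 84 reads (95% exact binomial interval 2.67 to 14.9%), and its upper bound lay below the share in every other library. In wildtype library 5, at the other end, it rested on 62 of 97 reads (53.5 to 73.4%). The same APOE-KO library 2 had 25.7 CPM of Hspa1a, close to the median of its group. These intervals cover counting error only. Summed to 1 gene, the pair averaged 53.7 ± 27.3 CPM in APOE-KO and 45.9 ± 13.8 CPM in wildtype libraries (SD, n = 6 each), with a log2 fold change of 0.24 ± 0.27 (SE; 95% interval -0.32 to 0.79; edgeR adjusted p = 0.805).

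The constitutive genes all had negative estimates, none past the threshold, and the estimates lay between -0.25 and -0.059. Hsp90ab1 (chr17:45567775-45573271, minus strand), the gene for Hsp90 beta, had 2118 to 2922 CPM (median 2245) in APOE-KO and 2021 to 2719 CPM (median 2483) in wildtype libraries. It was the gene with the most reads of the 10 in every library, on a 3′ protocol in which counts do not grow with transcript length. Its log2 fold change was -0.059 ± 0.11 (SE; 95% interval -0.28 to 0.16; edgeR adjusted p = 0.896), the smallest in size of the set.

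Hspa8 (chr9:40800984-40810087, plus strand) encodes Hsc70, the housekeeping Hsp70 that also uncoats clathrin vesicles. It had 225 to 292 CPM (median 262) in APOE-KO and 241 to 394 CPM (median 265) in wildtype libraries. The wildtype maximum was library 3, and the other 11 libraries lay between 225 and 292 CPM. The log2 fold change of -0.13 ± 0.13 (SE; edgeR adjusted p = 0.778) came to 0.0033 without that library.

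Dnaja1 (chr4:40722150-40737149, plus strand), a J-domain co-chaperone of Hspa8, had 70.9 to 107 CPM (median 81.3) in APOE-KO and 63.2 to 125 CPM (median 106) in wildtype libraries. The wildtype range enclosed all 6 APOE-KO libraries, with library 1 lowest and library 3 highest. The fitted log2 fold change was -0.25 ± 0.16 (SE; edgeR adjusted p = 0.586). Its last 500 bases overlap Smu1 on the other strand, and the strand setting of the counting is not known, so reads of the 2 genes may be mixed.

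The mitochondrial pair had estimates of opposite sign. Hspe1 (chr1:55088132-55091307, plus strand) and Hspd1 (chr1:55077835-55088243, minus strand) are transcribed away from each other from gene spans that overlap by 112 bases. The 4-unit run of heat shock element letters lies inside the Hspd1 span and upstream of Hspe1. Hspe1 had 122 to 185 CPM (median 166) in APOE-KO and 113 to 165 CPM (median 142) in wildtype libraries. Of the 6 APOE-KO libraries, 3 lay above every wildtype library. The log2 fold change was 0.13 ± 0.14 (SE; 95% interval -0.16 to 0.41; edgeR adjusted p = 0.800).

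Hspd1 had 35.6 to 55.5 CPM (median 48.2) in APOE-KO and 39.4 to 72.3 CPM (median 60.5) in wildtype libraries. APOE-KO library 3 lay below every wildtype library. Its log2 fold change was -0.29 ± 0.17 (SE; 95% interval -0.64 to 0.055), with an unadjusted edgeR p of 0.0951 and an adjusted p of 0.514. The CPM ratio of Hspe1 over Hspd1 averaged 3.38 ± 0.957 in APOE-KO and 2.53 ± 0.600 in wildtype libraries (SD, n = 6 each), a description with no test, and the highest ratio was 4.93 in APOE-KO library 3. Across the 12 libraries the 2 genes had r = -0.22 and rho = -0.17 (n = 12). Their permutation p was 0.489 for r and 0.601 for rho, or 0.930 and 0.949 after adjustment. The annotation names 6 pseudogenes of Hspe1, 5 of Hspd1 and 1 of Dnaja1, and reads that match a pseudogene as well as its parent may have been lost or moved.

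Inducible against constitutive chaperones can be read within each library, which cancels its depth. The 5 inducible cytosolic genes summed to 436 ± 81.4 CPM in APOE-KO and 509 ± 88.1 CPM in wildtype libraries, and the 3 constitutive ones to 2721 ± 305 CPM in APOE-KO and 2858 ± 268 CPM in wildtype libraries (SD, n = 6 each). Their ratio was 0.161 ± 0.0326 in APOE-KO and 0.179 ± 0.0305 in wildtype libraries. The ranges, 0.118 to 0.202 in APOE-KO and 0.131 to 0.213 in wildtype, overlapped over most of their length. On the log2 scale the mean was -2.66 ± 0.30 in APOE-KO and -2.50 ± 0.26 in wildtype libraries, a difference of -0.16 that is smaller than the SD of either group. The inducible genes supplied 12.97 ± 2.24% of the counts of the 10 genes in APOE-KO and 14.3 ± 2.11% in wildtype libraries. No test is given for these scores, since the genes were chosen with results known. Hsp90aa1 made up most of the inducible sum, with 283 ± 62.3 CPM in APOE-KO and 339 ± 100.4 CPM in wildtype libraries. Hsp90ab1 made up most of the constitutive sum, with 2376 ± 306 CPM in APOE-KO and 2474 ± 256 CPM in wildtype libraries. The ratio therefore mainly sets Hsp90aa1 against Hsp90ab1. With Hspa1a and Hspa1b alone as the inducible set, the log2 difference was 0.19, of the other sign.

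**Figure D4:**
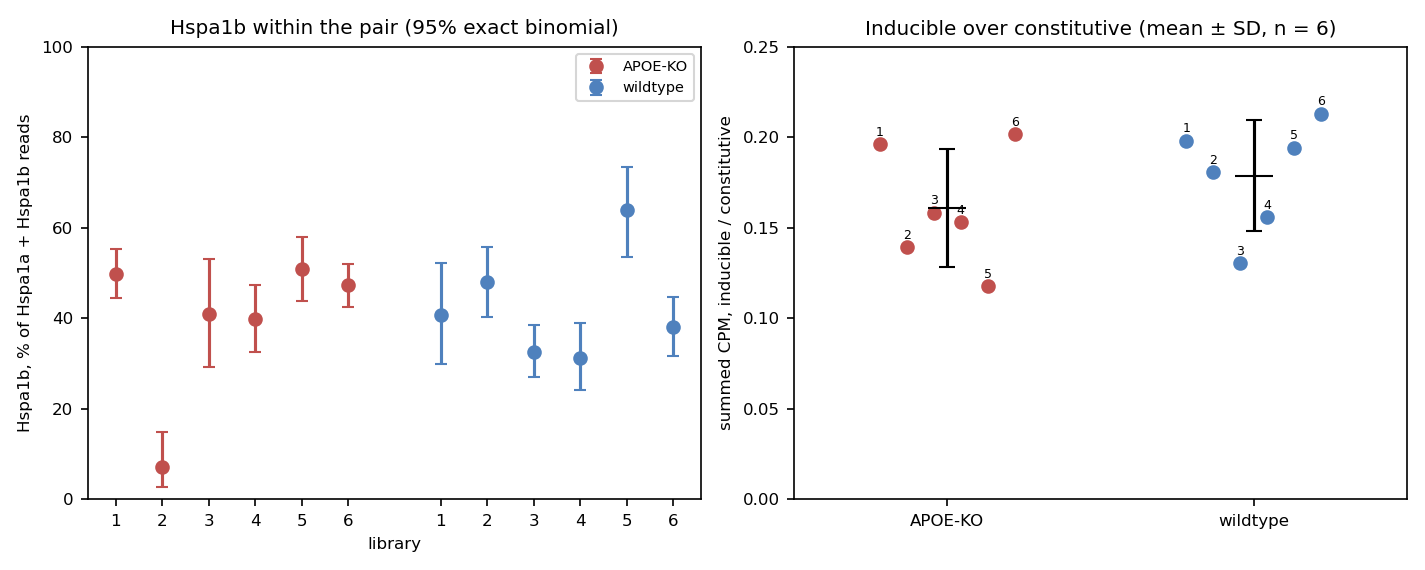
Left, the percentage of Hspa1a plus Hspa1b reads that fell on Hspa1b in each library (vertical axis) with 95% exact binomial intervals, APOE-KO libraries first; APOE-KO library 2 stands at 7.14%. Right, summed CPM of the 5 inducible cytosolic genes over that of the 3 constitutive ones, by library number, with mean ± SD (n = 6); the groups overlap.

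The genes varied to different extents between libraries of the same genotype. The biological coefficient of variation, the spread left after counting error, was 15.3% for Hsp90ab1 and 17.0% for Hspa8, at percentiles 1.08 and 6.09 among genes tested. It was 48.0% for Hspa1b and 33.3% for Hspa1a, at percentiles 83.8 and 64.0, where the common value over all genes was 30.1%. The estimate moves with expression level, which is lower in Hspa1a and Hspa1b, and no test sets the groups of genes apart.

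Whether the genes moved together from library to library was examined for all 45 pairs over the 12 libraries. The 10 pairs between inducible genes had r from -0.11 to 0.58, with a median of 0.16, and none passed. Over all 45 pairs the median r was 0.14, with 30 positive and 15 negative, and 17 were positive within both genotypes. Of the 45, 2 pairs passed a permutation test of Pearson's r after Benjamini-Hochberg adjustment over the 45 pairs, and 1 of them also by Spearman's rho.

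Hspa8 and Dnajb1, the constitutive Hsp70 and the inducible J-domain protein, had the closest relation, with r = 0.94 and rho = 0.84 (n = 12). Its permutation p was 4e-05 for r and 0.00107 for rho, or 0.0018 and 0.0482 after adjustment. The relation was present in each genotype, with r = 0.97 within APOE-KO and 0.99 within wildtype libraries (n = 6 each). Without the 2 libraries farthest from the median of Hspa8, wildtype library 3 and APOE-KO library 5, r was 0.82, and without wildtype library 3 alone it was 0.88. The other pair was Dnaja1 and Hsph1, a J-domain protein and a nucleotide exchange factor, with r = 0.80 and rho = 0.78 (n = 12). Its permutation p was 0.00171 for r and 0.00431 for rho, or 0.0385 and 0.0647 after adjustment. Within genotypes r was 0.86 in APOE-KO and 0.90 in wildtype libraries, and without wildtype libraries 1 and 3 it was 0.84. Both genes of each pair share library and depth, and 12 libraries leave each r imprecise. The permutation test sets r against no relation, and how often pairs of other genes pass was not examined. Within wildtype libraries, r with the Rn45s share was -0.92 for Dnaja1 and -0.76 for Hsph1. Within APOE-KO libraries it was -0.12 for Dnaja1 and -0.030 for Hsph1 (n = 6 each). The part of the Rn45s share in the relation of the pair was not tested.

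Hspa1a and Hspa1b, with their near-identical promoter windows, had r = 0.39 and rho = 0.59 (n = 12). Their permutation p was 0.200 for r and 0.0492 for rho, or 0.591 and 0.216 after adjustment. By r, the most negative relation was between Hspa1b and Hsp90ab1, with r = -0.71 and rho = -0.63 (n = 12). Its permutation p was 0.0063 for r and 0.0332 for rho, or 0.0709 and 0.216 after adjustment. Within APOE-KO libraries r was -0.97 and within wildtype libraries -0.23 (n = 6 each), a difference that was not tested. Without APOE-KO libraries 2 and 6, the farthest from the median of Hspa1b, it was -0.44.

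**Figure D5:**
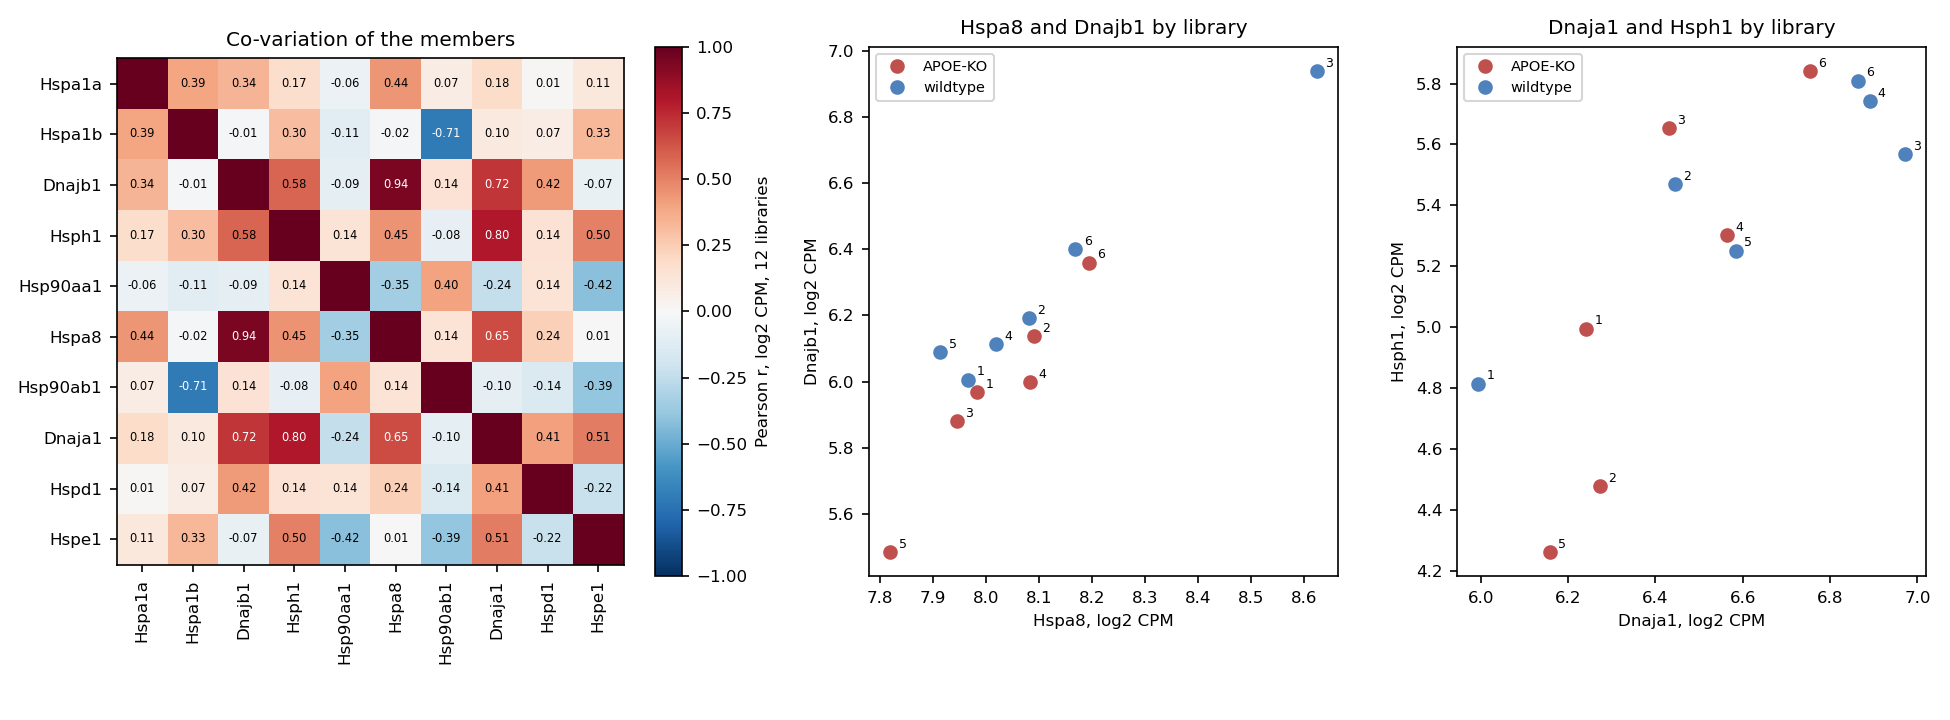
Left, Pearson's r of log2 CPM over the 12 libraries for all pairs of the 10 genes (colour scale from -1 to 1). Middle and right, the 2 pairs that passed the adjusted permutation test, Hspa8 against Dnajb1 and Dnaja1 against Hsph1, in log2 CPM with library numbers; wildtype library 3 is the far point for Hspa8 and Dnajb1, and r is 0.88 without it.

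Levels were also set against the 2 library features that could move with them, the Rn45s share and the mean log2 level of 20 immediate early genes, which many stimuli switch on quickly. None of these 20 relations passed after adjustment by r or by rho, and 2 had an unadjusted permutation p under 0.05 by r. Dnaja1 against the Rn45s share had r = -0.71 and rho = -0.56 (n = 12), and r was -0.39 without wildtype libraries 1 and 3. Its permutation p was 0.00781 for r and 0.0632 for rho, or 0.156 and 0.559 after adjustment. Hsp90aa1 had r = 0.65 and rho = 0.57 with the same share (n = 12, permutation test, adjusted p = 0.243 for r and 0.559 for rho). Without wildtype libraries 1 and 3 its r was 0.20. The mean level of the inducible genes and that of the immediate early genes had r = 0.061 over the 12 libraries, -0.47 within APOE-KO and 0.16 within wildtype libraries. For the constitutive mean, r was 0.49 over the 12 libraries, -0.53 within APOE-KO and 0.65 within wildtype libraries. Against the Rn45s share, r was -0.24 for the inducible mean (-0.72 within APOE-KO, 0.055 within wildtype) and -0.53 for the constitutive mean (0.37 within APOE-KO, -0.81 within wildtype). These are descriptions of scores, with no test.

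Around these 10 genes, the rest of the chaperone network also held no gene past the threshold. The lists covered 4 other Hsp70 and Hsp110 genes tested, 14 J-domain proteins, 13 Hsp90 co-chaperones and 10 Hsp70 exchange and partner factors. They also covered 3 of 8 genes listed as small heat shock proteins and 3 genes of heat shock factors and their brakes. The rest were the 8 subunits of the chaperonin TRiC, 10 mitochondrial chaperones and proteases, and 22 genes of endoplasmic reticulum folding. By unadjusted edgeR p under 0.05 there were 4 Hsp90 co-chaperones, 2 endoplasmic reticulum genes, 1 J-domain gene, 1 gene of heat shock factors and brakes and 0 in the other lists, beside 12.1% of all genes tested. DESeq2 and limma-voom each called 1 gene of heat shock factors and brakes, Hsf2, and 0 in the other lists. Median log2 fold changes ran from -0.23 for the other Hsp70 and Hsp110 genes, all 4 negative, to 0.40 for the small heat shock list. That list had 3 genes tested, and its median is the value of Hspb11. The median over all genes tested was -0.018. The mitochondrial list, which holds matrix chaperones and quality control proteases, had 9 of 10 positive and a median of 0.24, and of the matrix chaperonin pair Hspe1 was at 0.13 and Hspd1 at -0.29.

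Nearest to the threshold was Hsf2, a heat shock transcription factor that is regulated apart from the acute heat response. It averaged 61.7 ± 9.60 CPM in APOE-KO and 38.8 ± 11.0 CPM in wildtype libraries (SD, n = 6 each), with a log2 fold change of 0.68 ± 0.18 (SE; edgeR adjusted p = 0.0681). It passed with DESeq2 (adjusted p = 0.0267), with limma-voom (0.0341) and with no filter on low counts (0.0342). Leaving out 1 library gave adjusted p from 0.0158 to 0.156, and it passed without APOE-KO library 2 and without wildtype library 1.

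The groups overlapped for Hsf2. Of the other genes named from the chaperone lists, 2 had groups that did not overlap, without passing the adjusted threshold. The named genes were picked by small p, so this is not a count over the whole lists. Sugt1, an Hsp90 co-chaperone for innate immune receptors, averaged 122 ± 8.66 CPM in APOE-KO and 95.3 ± 11.3 CPM in wildtype libraries (edgeR adjusted p = 0.224). Ddit3, the CHOP transcription factor of the unfolded protein response, averaged 35.9 ± 6.53 CPM in APOE-KO and 23.6 ± 4.93 CPM in wildtype libraries (edgeR adjusted p = 0.166). Each had the lowest p of its list, and they sit beside the 1.77% of all genes without overlap.

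Other named genes of the lists stayed further from the threshold, and their values show the range. Hspa4, an Hsp110 relative of Hsph1, averaged 184 ± 32.6 CPM in APOE-KO and 217 ± 14.9 CPM in wildtype libraries (edgeR adjusted p = 0.493). Stub1, the ubiquitin ligase CHIP that docks on Hsp70 and Hsp90, averaged 67.5 ± 8.11 CPM in APOE-KO and 77.4 ± 24.1 CPM in wildtype libraries (edgeR adjusted p = 0.744). For Cct4, a TRiC subunit, the means were 242 ± 15.4 CPM in APOE-KO and 217 ± 37.5 CPM in wildtype libraries (edgeR adjusted p = 0.686). Trap1, the mitochondrial Hsp90, averaged 30.03 ± 4.79 CPM in APOE-KO and 23.9 ± 6.41 CPM in wildtype libraries (edgeR adjusted p = 0.600).

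The other genes named from these lists had the following log2 fold changes, none past the threshold. Among J-domain proteins, Dnajb5 was at 0.61 and Dnajb4 at -0.56, with group means between 9.79 and 17.2 CPM. Hspa14, a ribosome-associated Hsp70, was at -0.28 and Bag2, an Hsp70 exchange factor with libraries at 0 counts in both groups, at -1.39. Hsbp1, a brake on heat shock factor, was at 0.35. From the small heat shock list, Hspb11 was at 0.40 and Hspb6 at 0.53. Tcp1, a TRiC subunit, was at 0.17, Hscb, a J-domain protein of iron-sulphur cluster assembly, at 0.52, and Sdf2l1, an endoplasmic reticulum partner of J-domain proteins, at 0.45.

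The list that did hold a called gene was the immediate early one. Egr1 fell to 442 ± 51.9 CPM in APOE-KO, against 670 ± 91.4 CPM in wildtype libraries (SD, n = 6 each; log2 fold change -0.60 ± 0.12, SE; edgeR adjusted p = 0.00689), with no overlap between groups. It was the 1 of 20 tested past the threshold, beside 1.49% of all genes tested. DESeq2 called 2 genes of the list, beside 2.25% of all its genes. By unadjusted edgeR p under 0.05 there were 5, beside 12.1% of all genes tested. The list's median was -0.18, with 16 negative. The inducible chaperones had a median of -0.26 with none called, and the difference between the lists was not tested.

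Outside the heat shock genes, the patterns most like the mean log2 level of the inducible set over the 12 libraries included those of Xpo1 (r = 0.91), Acly (0.81) and Ggct (0.80). For the mean of the constitutive set they included Dexi (0.90), Yeats4 (0.87), Emc1 (0.86) and Eif1b (0.86). Each was picked as among the 5 closest of 6193 eligible genes, so high values were sure to be found, and none of those named passed the threshold between genotypes.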

How the data were processed

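RNA of 12 libraries was sequenced from the 3′ end (Lexogen FWD kit, per the labels' protocols). The deposited values are raw counts of reads for each gene symbol. The submitters' processing notes name the aligner STAR (2.7.8a), the counter featureCounts (1.5.1), DESeq2 (1.4) in R (4.1.0), and build mm10. No source used here states the annotation, the strand setting, the treatment of reads with several matches or the use of molecular identifiers. Columns were matched to samples by their short descriptions, and genotype set the groups. Library totals were 2381477 to 4898360 counts.

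Genes kept by filterByExpr (minimum count 10, minimum total 15) were fitted with edgeR 4.0.16 in R 4.3.3 (TMM factors, quasi-likelihood test, genotype alone, Benjamini-Hochberg adjusted p of 0.05 over all genes). Scripts were tested on simulated data. CPM values use TMM-scaled library sizes, and log2 CPM a prior count of 2. DESeq2 1.42.0, limma-voom 3.58.1, other size factors, other filters, summed Hspa1a and Hspa1b, a replicate block and leaving out each library were the alternatives. Correlations used 100000 two-sided permutations. No 2 libraries of the same genotype were alike within sampling noise. Members, roles and gene lists were chosen with earlier results of these data known. Named from each list were every gene past the threshold or, with none, the 2 with the smallest p, plus Apoe, Itgax, Rn45s and the 5 genes closest in pattern to each chaperone set (mean of at least 20 CPM, no Gm or Rik name); some genes chosen by this rule are not reported here. Positions come from GENCODE vM21 (GRCm38, the assembly that mm10 also names) and promoters from RefSeq (GRCm38.p6).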

Additional observations from a re-analysis of the deposited data

Results flagged for a closer look

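Each group of 6 libraries was searched for 1 library far from the others, and 4 of 38 groups had one. Chance gives about 1 in 20 for a single group. The 38 share libraries and genes, so their count cannot be set against that rate. Wildtype library 3 stood apart in 3 of the 4. Its Hspa8 level of 394 CPM had the next highest wildtype library at 287 CPM, and its Dnajb1 level of 122 CPM had the next at 83.9 CPM. Its ratio of Hsp90ab1 over Hsp90aa1 was 14.2, with the next highest wildtype library at 8.39. This library also had the lowest Rn45s share of all, 2.71%, and the highest total, 4898360 counts. The part of either in these values was not tested.

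The remaining one was APOE-KO library 2, where Hspa1b took 7.14% of the reads of Hspa1a plus Hspa1b, with the next lowest APOE-KO library at 39.8%. Its Hspa1a level was within the range of its group. Its Rn45s share was 21.5%, the part of which was not tested.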

How the results depend on the processing

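No member passed the threshold under any of the 22 alternatives, and 7 estimates were negative under each except the fits without APOE-KO library 6 (8) and without wildtype library 3 (6). The 2 turns were Hspa1a, at -0.017 without APOE-KO library 6 and up to 0.33 with another library left out, and Hspa8, at 0.0033 without wildtype library 3 and down to -0.17 with another left out. Genes past the threshold numbered 160, against 272 with DESeq2 and 99 to 230 when 1 library was left out (99 without APOE-KO library 3). The cause was not tested. With the replicate block the number was 100, of which 0 were members. Same-numbered libraries did not deviate together (r of deviations -0.077 to 0.018, and 0 of 6 APOE-KO libraries were closest to their own number). No pairing by number showed in expression, and whether same-numbered libraries were handled together cannot be told from this. The inducible over constitutive difference of -0.16 was 0.19 with Hspa1a and Hspa1b alone as inducible, and -0.24 to -0.071 when 1 library was left out. The inducible share differed by -1.29 percentage points, by -1.96 to -0.65 when 1 library was left out, and by 0.361 with Hspa1a and Hspa1b alone as inducible. Hspa1b had the widest range of log2 fold changes among the members, 0.037 to 0.56 when 1 library was left out, and 0.074 with the replicate block. The 2 co-varying pairs numbered 2 under RLE factors, without Rn45s in the library sizes, and without wildtype library 3, the last an alternative chosen after seeing the data. Hspa1b and Hspa1a had the fewest counts, as few as 6 and 35 in a library, which limits their precision.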
